A study of Mus musculus with 16 samples.

Results

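A group of 10 immune checkpoint genes is described here across bone marrow, samples labelled MSC and MC38 tumors. They were chosen by name, before any filter on level, from the 55536 genes of the deposited count table: Pdcd1, Cd274, Pdcd1lg2, Ctla4, Lag3, Havcr2, Tigit, Cd200, Vsir and Entpd1. All 10 were found by their Ensembl identifiers.

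Libraries came from mice labelled K74R for a KLF gene and from mice labelled WT for it. The allele changes a lysine to an arginine, the labels give the gene as KLF with no number, and the sample titles call the K74R samples KO. Bone marrow had 3 K74R and 3 WT libraries, MSC 2 and 2, and tumor 3 and 3. Tumors were of the line MC38, which was made from a mouse colon adenocarcinoma, and measured no more than 1000 mm3. The genotype label belongs to the host mouse, whereas MC38 cells come from a line, so a tumor library holds transcripts of both. The abbreviation MSC is not spelled out in the labels, and the sources used here state neither age, sex nor strain of the mice. Whether replicates are different mice or cultures is not stated, and the p-values therefore reflect the spread between the samples at hand, possibly a technical one. Counts per gene cannot show a single amino acid change, so the genotype labels were not checked against the counts.

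Checkpoints are receptors and ligands that damp lymphocytes and myeloid cells. PD-1 (Pdcd1) on activated T cells binds PD-L1 (Cd274) or PD-L2 (Pdcd1lg2) on tumor, stromal and myeloid cells and recruits phosphatases that weaken T cell receptor signaling. Interferon gamma induces PD-L1 and PD-L2, and antibodies against PD-1, PD-L1, CTLA-4 and LAG-3 are used to treat cancer. VISTA (Vsir), CD200 and CD39 (Entpd1) belong to the same field, and myeloid, endothelial, B cell and stromal cells carry them as well as T cells.

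Total counts were between 14067259 and 18923751 per library, so that 3 counts, taken as the limit behind a count of 0, correspond to between 0.159 and 0.213 CPM, the count scaled to a common library total. Tissue labels were set against cell type markers. Bone marrow carried erythroid, neutrophil and B cell markers, and all MSC libraries carried mesenchymal stromal markers, with a sum of 12390 to 17050 CPM in K74R and 12790 to 14030 CPM in WT. MSC libraries also held macrophage and monocyte markers, summing to 2339 to 4292 CPM in K74R and 6843 to 8683 CPM in WT. In MSC the T cell markers Cd3d, Cd3e, Cd3g, Cd8a and Cd8b1 were at 0 counts in every library. Cd4 was not, with a mean of 12.5 CPM in K74R MSC and 1.35 CPM in WT MSC. All 11 T cell markers summed to 18.8 and 7.53 CPM in K74R MSC and 2.03 and 3.66 CPM in WT MSC. Of them, 2 had a higher and 4 a lower K74R mean. Endothelial markers summed to 15.2 and 24.1 CPM in K74R MSC, against 289 and 1563 CPM in WT MSC, where replicate 2 stood apart. In tumors 5 of the 6 epithelial markers had means below 1 CPM (Epcam 0.398 CPM in K74R and 0.381 CPM in WT, Cdx2 0 in both). Cdh1 averaged 4.22 CPM in K74R tumors and 5.33 CPM in WT tumors. These markers thus did not show the labelled cell type, colon adenocarcinoma cells. The series holds no sample of the line alone, so low values cannot decide on that label.

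KLF proteins are zinc finger transcription factors that bind DNA at boxes with the letters CACCC. For that reason the 250 bases before the start site are shown for PD-1, for PD-L1 and for Cd200 and Vsir, which passed the genotype test described below. The sequences are from RefSeq on build GRCm38.p6, on the strand of the gene, and capitals mark CACCC or, where the box lies on the opposite strand, GGGTG.
Pdcd1: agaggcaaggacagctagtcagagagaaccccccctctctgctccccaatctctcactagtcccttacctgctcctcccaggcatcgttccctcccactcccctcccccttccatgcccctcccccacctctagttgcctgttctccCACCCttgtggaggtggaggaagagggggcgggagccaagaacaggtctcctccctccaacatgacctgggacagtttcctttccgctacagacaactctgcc
Cd274: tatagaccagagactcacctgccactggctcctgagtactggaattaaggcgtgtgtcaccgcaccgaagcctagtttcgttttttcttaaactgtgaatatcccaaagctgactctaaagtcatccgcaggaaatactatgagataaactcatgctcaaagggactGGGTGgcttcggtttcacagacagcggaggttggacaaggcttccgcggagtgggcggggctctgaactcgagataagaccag
Cd200: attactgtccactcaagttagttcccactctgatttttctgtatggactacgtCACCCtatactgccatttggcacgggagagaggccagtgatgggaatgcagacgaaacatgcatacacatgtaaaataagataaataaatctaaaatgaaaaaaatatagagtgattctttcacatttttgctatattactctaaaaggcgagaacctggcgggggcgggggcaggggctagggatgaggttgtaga
Vsir: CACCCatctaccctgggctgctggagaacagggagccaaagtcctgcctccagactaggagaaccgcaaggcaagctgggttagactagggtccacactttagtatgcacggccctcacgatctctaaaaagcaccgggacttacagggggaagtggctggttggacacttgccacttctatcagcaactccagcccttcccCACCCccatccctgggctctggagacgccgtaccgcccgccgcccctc
The window of Pdcd1 is chr1:94052554-94052803 on the minus strand, with a box that begins 103 bases before the start. That of Cd274 is chr19:29367188-29367437 on the plus strand, with a box on the opposite strand 83 bases before the start. The Cd200 window, chr16:45409054-45409303 on the minus strand, has a box 197 bases before the start. Vsir has boxes 250 and 48 bases before the start, in chr10:60346601-60346850 on the plus strand. Of the 10 members, 9 had an entry, with 10 windows in all, since Entpd1 has entries for a pair of start sites. CACCC was found on either strand in 8 of the 10 windows and in 52.0% of all 32851 windows of that length. It was not found before the start of Ctla4 or before the downstream start of Entpd1, whose upstream start has boxes 231 and 94 bases away on the opposite strand. Tigit had a box 84 bases before its start, Havcr2 had boxes at 167 and 49, and Pdcd1lg2 had boxes at 177, 53 and 46. No entry was used for Lag3. A match of these letters is a description and not a binding site.

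PD-1 receptor transcripts were sparse. Pdcd1 (chr1:94038305-94052553, minus strand) had 4.21, 1.78 and 1.87 CPM in the K74R tumors and 3.38, 2.91 and 2.56 CPM in the WT tumors. The highest and the lowest of the 6 tumors were both K74R, and the genotypes overlapped. The log2 fold change was −0.16 (SE 0.35, adjusted p = 0.894, edgeR's quasi-likelihood test). In MSC, Pdcd1 had 0 counts in all 4 libraries, which allows up to 0.0473 CPM over the 4 together. In bone marrow it had 9, 13 and 10 counts in K74R (0.610, 0.890 and 0.696 CPM) and 9, 5 and 4 counts in WT (0.600, 0.321 and 0.306 CPM). That was under the count filter, so no genotype test was made in marrow alone. In 1 model of all 3 tissues Pdcd1 did not pass in marrow (log2 fold change 0.82, SE 0.49, adjusted p = 0.557). The summed counts of 32 in K74R and 18 in WT marrow give a ratio of 1.77 with an exact 95% counting interval of 0.966 to 3.36. A difference was therefore not detectable from these counts. Counting intervals and limits cover counting error only.

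PD-L1 had the highest median level per length of the members in tumors. Cd274 (chr19:29367455-29388095, plus strand) had 31.4, 23.5 and 41.5 CPM in K74R tumors and 33.5, 30.8 and 30.1 CPM in WT tumors. The K74R tumors spanned a wider range that contained all WT tumors, with 32.1 ± 9.04 CPM in K74R and 31.5 ± 1.82 CPM in WT (SD, n = 3 each). The log2 fold change was 0.04 (SE 0.18, adjusted p = 0.946). In MSC Cd274 had 5.30 and 5.71 CPM in K74R and 6.89 and 5.28 CPM in WT, which overlapped (log2 fold change −0.15, adjusted p = 0.786). In bone marrow the K74R libraries, at 8.88, 7.26 and 7.66 CPM, all lay below the WT libraries, at 10.9, 11.3 and 10.9 CPM. The log2 fold change of −0.46 (SE 0.14) had an unadjusted p of 0.0106 and did not pass after adjustment (adjusted p = 0.163). An annotated antisense gene overlaps a Cd274 exon, and since the strand setting of the counting is not stated in those sources, its reads cannot be told apart. PD-L2 stayed near the detection limit. Pdcd1lg2 (chr19:29410919-29471161, plus strand) had 0.495, 0.688 and 0.165 CPM in K74R tumors and 0.555, 0.543 and 0.278 CPM in WT tumors, 0 counts in all MSC libraries, and 1.22, 0.342 and 1.32 CPM in K74R marrow against 0.734, 0.514 and 0.765 CPM in WT marrow. The genotypes overlapped in both tissues where it was seen (log2 fold change −0.03 with adjusted p = 0.99 in tumor, 0.53 with adjusted p = 0.622 in marrow).

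**Figure D1:**
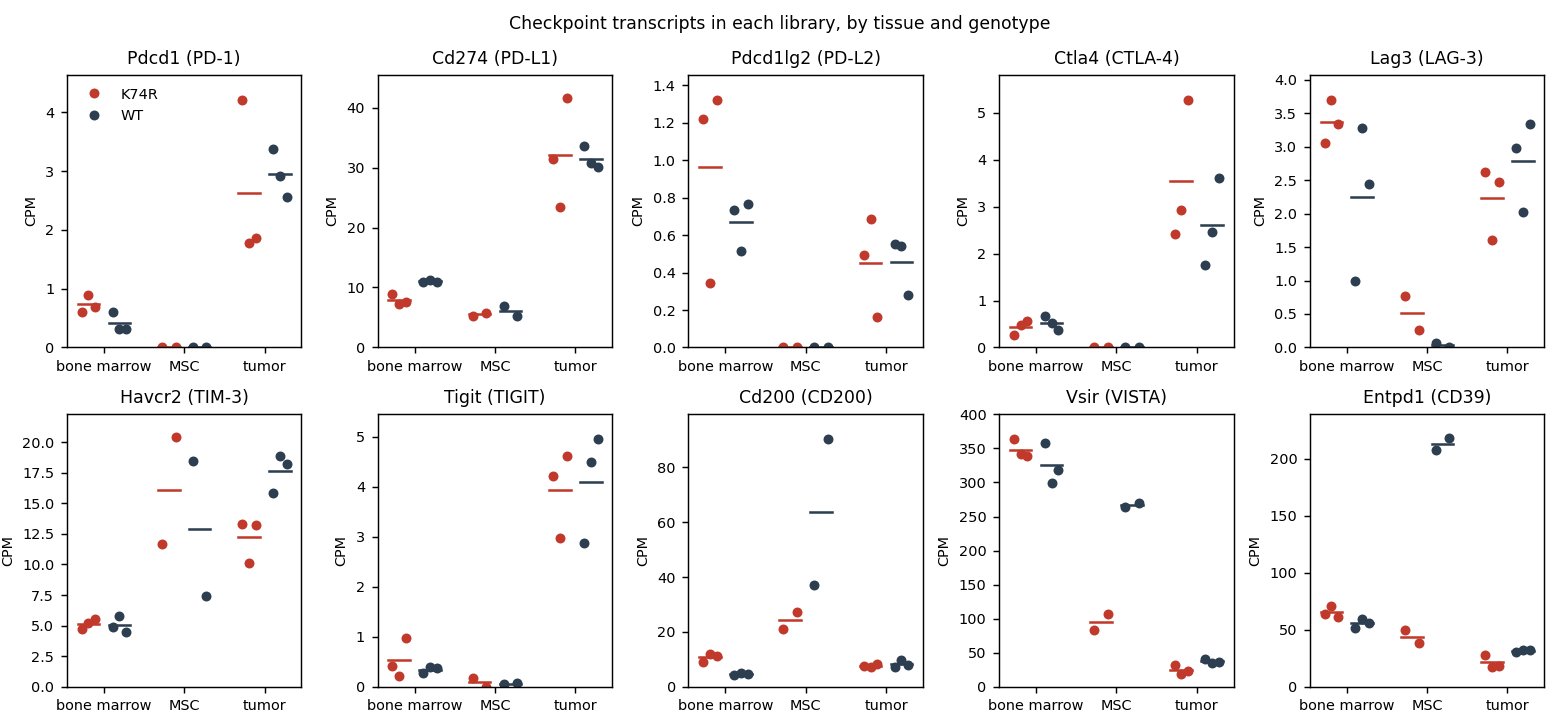
CPM of each checkpoint gene (vertical axes, each gene on its own linear scale from 0) in the 16 libraries, by tissue and genotype, with 1 point per library and a bar at the group mean. Entpd1 and Vsir show the widest gap between genotypes in MSC, Cd200 lies higher in K74R marrow, and the points of Pdcd1, Cd274 and Ctla4 overlap in tumor.

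The other T cell receptors of the group showed no genotype difference that passed the test of a tissue alone. Ctla4 (chr1:60887000-60915832, plus strand) encodes CTLA-4, which competes with CD28 for CD80 and CD86. It had 2.43, 2.92 and 5.27 CPM in K74R tumors and 1.77, 2.47 and 3.62 CPM in WT tumors, and these overlapped (log2 fold change 0.45, SE 0.37, adjusted p = 0.655). Ctla4 had 0 counts in every MSC library. In marrow it had 19 counts over K74R and 23 over WT, a ratio of 0.824 (exact 95% counting interval 0.425 to 1.58). It was under the filter there and did not pass in 1 model of all 3 tissues (log2 fold change −0.27, adjusted p = 0.906). Tigit (chr16:43648867-43664146, minus strand) encodes a receptor for CD155 (Pvr) on T and NK cells. It had 4.21, 2.98 and 4.61 CPM in K74R tumors and 2.88, 4.49 and 4.95 CPM in WT tumors (log2 fold change −0.05, adjusted p = 0.963). Its marrow counts summed to 23 in K74R and 15 in WT (ratio 1.53, exact 95% interval 0.765 to 3.15), and MSC gave 3 counts in K74R and 2 in WT. Tigit was under the filter in both tissues. In the model of all 3 tissues its log2 fold change was 0.60 in marrow (adjusted p = 0.74) and 0.47 in MSC (adjusted p = 0.863).

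Lag3 (chr6:124904361-124911705, minus strand), a CD4-related receptor for MHC class II and FGL1, had 2.63, 1.61 and 2.47 CPM in K74R tumors and 2.98, 2.02 and 3.34 CPM in WT tumors. These overlapped (log2 fold change −0.30, adjusted p = 0.717). In marrow it had 3.05, 3.70 and 3.34 CPM in K74R and 1.00, 3.28 and 2.45 CPM in WT, which also overlapped (log2 fold change 0.60, adjusted p = 0.443). In MSC there were 13 and 4 counts in K74R, against 1 and 0 counts in WT. The ratio of 16.3 has an exact 95% counting interval of 2.55 to 680.4, which does not include the spread between samples, and the gene was under the filter there. In 1 model of all 3 tissues the filter ran over all 16 libraries, so Lag3 was tested there in spite of its low MSC counts. It passed as higher in K74R MSC (log2 fold change 3.73, SE 1.09, adjusted p = 0.0217). That model called 4430 of 18191 genes in MSC, and the Lag3 call still rests on the few counts given above. Havcr2 (chr11:46454935-46481255, plus strand) encodes TIM-3, a receptor of T cells, macrophages and dendritic cells. All 3 K74R tumors, at 13.3, 10.1 and 13.2 CPM, lay below the WT tumors, at 15.8, 18.8 and 18.2 CPM. The log2 fold change was −0.52 (SE 0.14, unadjusted p = 0.00528) and did not pass after adjustment (adjusted p = 0.316). In MSC Havcr2 had 11.7 and 20.5 CPM in K74R and 18.5 and 7.38 CPM in WT, and in marrow 4.75, 5.20 and 5.50 CPM in K74R and 4.87, 5.78 and 4.51 CPM in WT. Both pairs overlapped (log2 fold change 0.30 with adjusted p = 0.742 in MSC, 0.04 with adjusted p = 0.942 in marrow).

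Cd200 was the member that rose in K74R bone marrow. Cd200 (chr16:45382135-45409053, minus strand) encodes a membrane ligand whose receptor CD200R1 inhibits myeloid cells, and B cells, endothelial cells and some T cells carry it. It had 9.09, 12.1 and 11.1 CPM in K74R marrow and 4.20, 4.95 and 4.74 CPM in WT marrow. Every K74R library lay above every WT library, with 10.8 ± 1.54 CPM in K74R and 4.63 ± 0.386 CPM in WT (SD, n = 3 each). The fold change was 2.34 (log2 1.23, SE 0.18, adjusted p = 0.0215). The direction held under all 15 alternatives and the call under 10 of them. It ended without K74R replicate 2 (adjusted p = 0.158) or 3 (adjusted p = 0.134), without WT replicate 1 (adjusted p = 0.0686) or 3 (adjusted p = 0.112), and in 1 model of all 3 tissues (adjusted p = 0.0945). Of 9 B cell markers, 9 had a higher mean in K74R marrow, and their sum was 815.5 to 1153 CPM in K74R and 407.1 to 775.2 CPM in WT, with none of the 9 at 0. T cell markers summed to 76.1 to 86.7 CPM in K74R marrow and 52.4 to 56.2 CPM in WT marrow, with a higher K74R mean in 10 of 11. Neutrophil markers went the other way, with sums of 22850 to 24830 CPM in K74R marrow and 28140 to 30680 CPM in WT marrow. Their K74R mean was lower in 7 of 7. In bulk samples fewer cells of a type and less RNA per cell cannot be told apart, and the part of these cells in the Cd200 result was not tested.

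In MSC Cd200 had 21.2 and 27.2 CPM in K74R and 37.1 and 90.5 CPM in WT. Both K74R libraries were below both WT libraries, and the WT libraries lay far apart, with WT replicate 1 nearer to the K74R libraries than to WT replicate 2. The log2 fold change was −1.40 (SE 0.43, unadjusted p = 0.0183, adjusted p = 0.119). It passed under 5 of 13 alternatives, among them DESeq2 (adjusted p = 0.0168) and the fit without WT replicate 1 (log2 fold change −1.90, adjusted p = 0.0184). Without WT replicate 2 the log2 fold change was −0.64 (adjusted p = 0.43). All 5 endothelial markers had a lower mean in K74R MSC, with the sums given above. Their part was not tested. In tumor Cd200 had 7.63, 7.17 and 8.19 CPM in K74R and 7.21, 9.72 and 8.01 CPM in WT (log2 fold change −0.11, adjusted p = 0.829), and the genotypes overlapped.

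Vsir and Entpd1 fell in K74R MSC. Vsir (chr10:60346851-60372684, plus strand) encodes VISTA, a B7-family molecule of myeloid cells and T cells. Vsir had 83.6 and 106.5 CPM in K74R MSC and 264.5 and 270.4 CPM in WT MSC. The genotypes did not overlap and the WT libraries differed little from each other (log2 fold change −1.50, SE 0.20, adjusted p = 0.0319). Entpd1 (chr19:40612366-40741602, plus strand) encodes CD39, an enzyme that degrades extracellular ATP and ADP and so feeds adenosine production by CD73. Entpd1 had 49.4 and 38.5 CPM in K74R MSC and 207.5 and 217.9 CPM in WT MSC (log2 fold change −2.28, SE 0.21, adjusted p = 0.0196). The call on Entpd1 held under 12 of 13 alternatives and was lost without K74R replicate 1 (adjusted p = 0.0933). That on Vsir held under 11 and was lost without K74R replicate 1 (adjusted p = 0.143) or WT replicate 2 (adjusted p = 0.0615). Macrophage and monocyte markers in MSC summed to 2339 and 4292 CPM in K74R, against 8683 and 6843 CPM in WT, with a lower K74R mean in 7 of 9. Ly6c2 was at 0 in WT MSC, and Csf1r averaged 646.5 CPM in K74R and 1738 CPM in WT. Markers of all white cells summed to 387.1 and 768.8 CPM in K74R and 1408 and 1086 CPM in WT, all 4 with a lower K74R mean. The sums of mesenchymal stromal markers overlapped between the genotypes, but the markers did not move as one. A higher K74R mean was found for 5 of 8 (Col1a1 4287 CPM in K74R and 1591 CPM in WT) and a lower one for 3 of 8 (Cxcl12 2318 CPM in K74R and 6998 CPM in WT). Endothelial markers had a lower K74R mean in 5 of 5, with the MSC sums given above. Dendritic cell markers summed to 7.06 and 6.95 CPM in K74R MSC and 20.9 and 25.9 CPM in WT MSC. Of these 7 markers, 4 had a lower and 1 a higher K74R mean. The part of all these cells in the Vsir and Entpd1 results was not tested.

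In tumors the K74R libraries of Vsir and Entpd1 also lay below the WT libraries, without passing the test. Vsir had 32.2, 18.3 and 23.4 CPM in K74R tumors and 41.0, 35.2 and 35.8 CPM in WT tumors (log2 fold change −0.59, SE 0.18, unadjusted p = 0.0102, adjusted p = 0.345). Entpd1 had 28.2, 17.7 and 18.2 CPM in K74R tumors and 30.7, 32.1 and 31.9 CPM in WT tumors (log2 fold change −0.55, SE 0.17, unadjusted p = 0.00996, adjusted p = 0.344). For both genes K74R tumor 1 was the K74R tumor nearest to WT. Without it Vsir (log2 fold change −0.82, adjusted p = 0.0399) and Entpd1 (log2 fold change −0.79, adjusted p = 0.0162) passed, as did 124 genes in all, against 6 with every library. Each of the pair passed under 2 of 15 alternatives, with adjusted p up to 0.748 for Vsir and 0.789 for Entpd1. Macrophage and monocyte markers summed to 748.9, 659.8 and 497.8 CPM in K74R tumors and 864.2, 901.3 and 848.4 CPM in WT tumors, with a lower K74R mean in 8 of 9 and none at 0. Markers of all white cells summed to 250, 146.8 and 168.4 CPM in K74R tumors and 276.6, 249.7 and 297.6 CPM in WT tumors, with a lower K74R mean in 4 of 4. T cell markers summed to 38.2, 12.7 and 24.7 CPM in K74R tumors and 38.5, 27.9 and 30.5 CPM in WT tumors, and K74R tumor 1, which had the most Pdcd1, also had the highest of the K74R sums. Endothelial markers summed to 108.1, 127.2 and 106.1 CPM in K74R tumors and 133, 151.8 and 168.3 CPM in WT tumors, without overlap and with a lower K74R mean in 5 of 5. The part of these cells in the tumor values of Vsir, Entpd1, Havcr2 and Pdcd1 was not tested. In marrow Vsir had 364.4, 342.0 and 338.3 CPM in K74R and 358.2, 298.7 and 318.4 CPM in WT, which overlapped (log2 fold change 0.11, adjusted p = 0.497). Entpd1 in marrow had 64.2, 70.4 and 60.8 CPM in K74R, all above the 51.9, 59.1 and 55.7 CPM of WT (log2 fold change 0.24, SE 0.088, unadjusted p = 0.0213, adjusted p = 0.2).

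**Figure D2:**
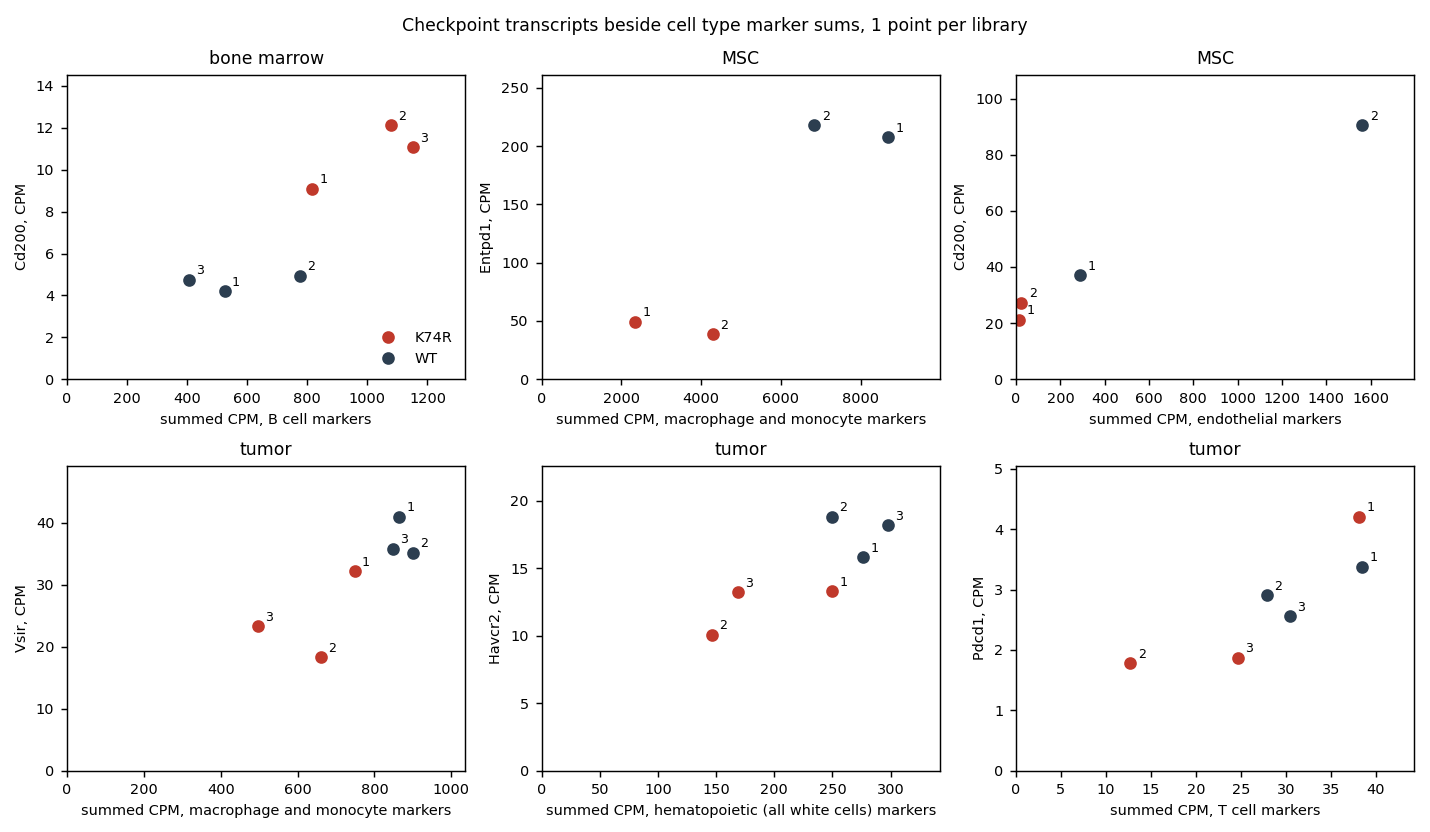
CPM of a checkpoint gene (vertical axes) against the summed CPM of a cell type marker list (horizontal axes), 1 point per library with its replicate number, both axes linear from 0. K74R marrow is high in both Cd200 and B cell markers, WT MSC is high in Entpd1 with macrophage markers and in Cd200 with endothelial markers, and K74R tumors lie low in Vsir with macrophage markers, K74R tumor 1 being nearest to WT.

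Read against all genes, the counts of members were as follows. In bone marrow 7 of the 10 members passed the count filter, and 1 of them (Cd200) passed the test, against 0.773% of all 14872 genes tested. An unadjusted p under 0.05 was reached by 3 of the 7, against 17.8% of all genes, and libraries of the genotypes did not overlap for 3 of the 7 (Cd200 and Entpd1 higher in K74R, Cd274 lower), against 22.9% of all genes. In MSC 5 of the 10 members passed the filter and 2 fell, against 1.29% of 14475 genes that fell and 3.34% called in either direction. There 3 of the 5 had an unadjusted p under 0.05, against 26% of all genes, and for 3 of the 5 (Cd200, Entpd1 and Vsir, all lower in K74R) the genotypes did not overlap. With 2 libraries a group 59.4% of all genes did not overlap, so that share of members is close to the background. In tumor all 10 members passed the filter and 0 passed the test with edgeR, DESeq2 or limma-voom, against 0.0406% of 14779 genes with edgeR. An unadjusted p under 0.05 was reached by 3 of the 10, against 11.2% of all genes, and 3 of the 10 (Entpd1, Havcr2 and Vsir, all lower in K74R) did not overlap, against 16.9% of all genes. The members were chosen with earlier results known, and with so few of them these counts are a description.

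**Figure D3:**
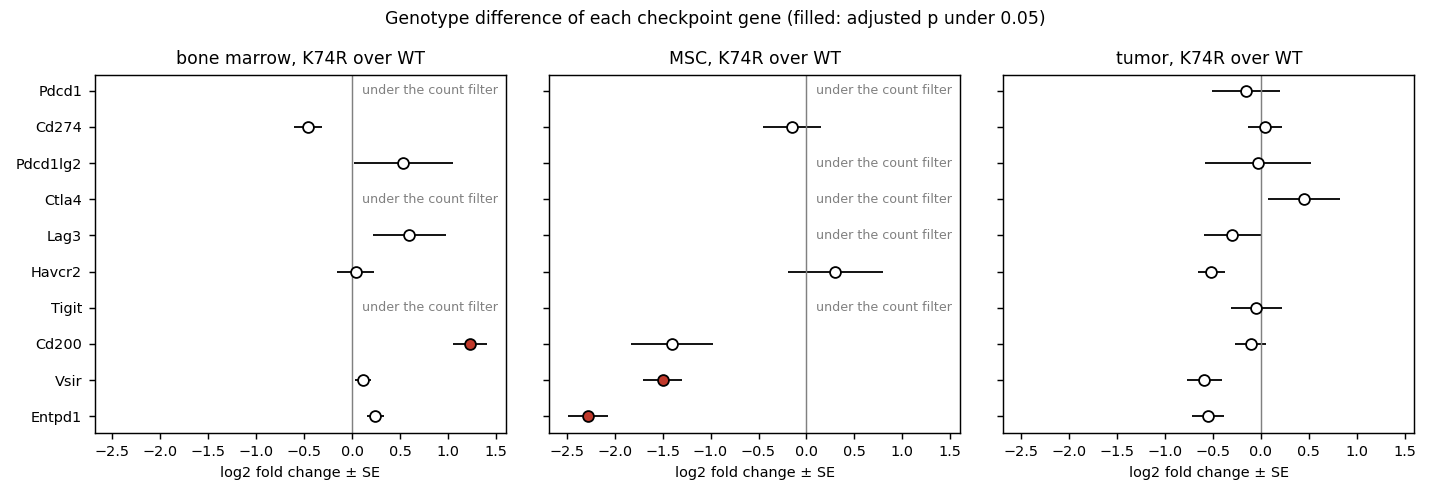
Log2 fold change of K74R over WT (horizontal axes, point ± SE) for each checkpoint gene in bone marrow, MSC and tumor, from the fit of each tissue alone, with filled points where the adjusted p was under 0.05. Filled points are Cd200 in marrow (1.23), Vsir (−1.50) and Entpd1 (−2.28) in MSC, and none in tumor.

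The genotype difference of several members itself differed between tissues, in a model of all 16 libraries. Between MSC and marrow the K74R over WT difference was lower in MSC for Cd200 (log2 difference of differences −2.61, adjusted p = 0.000522), Vsir (−1.59, adjusted p = 0.000515) and Entpd1 (−2.50, adjusted p = 6.49e-06). These 3 calls held under all 18 alternatives run. They stand against 18.8% of 18191 genes called in that contrast. Every one of these fits used 1 spread per gene for all tissues. Replicates differed most in MSC, with a chi-square per degree of freedom of 58.7 and 51.4, against 6.86 to 19.6 elsewhere. With edgeR, Cd200 in MSC had adjusted p = 0.119 in MSC alone and 0.00333 in the model of all 16 libraries. The interaction p-values may therefore understate the MSC spread, which the alternatives do not address. Between tumor and MSC the K74R over WT difference was higher in tumor for Entpd1 (1.72, adjusted p = 0.000284), Vsir (0.89, adjusted p = 0.0317) and Cd200 (1.28, adjusted p = 0.0494), and lower for Lag3 (−4.04, adjusted p = 0.039), against 10.6% of all genes. That of Lag3 rests on 1 count in the WT MSC libraries, and those of Lag3, Cd200 and Vsir were lost without single libraries, with adjusted p up to 0.27 for Lag3 and 0.156 for Vsir (both without K74R MSC replicate 1) and 0.32 for Cd200 (without WT MSC replicate 2). Between tumor and marrow 0 members passed with edgeR, against 0.0385% of all genes, and limma-voom called 0. DESeq2 called 2, Cd200 and Entpd1, against 1.3% of the genes to which it gave an adjusted p. The values were −1.33 for Cd200 (adjusted p = 0.245), −0.70 for Vsir (adjusted p = 0.307) and −0.79 for Entpd1 (adjusted p = 0.228). Without K74R tumor replicate 1, Vsir (−0.94, adjusted p = 0.048) and Entpd1 (−1.04, adjusted p = 0.0172) passed, as did 54 genes in all, against 7 with every library. Of 20 alternatives, Vsir passed under 2 and Entpd1 under 3. The contrast of tumor with MSC and that of MSC with marrow share the MSC libraries.

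Levels also separated the members by tissue, averaged over the genotypes. PD-1, CTLA-4, TIGIT, PD-L1 and TIM-3 transcripts were higher in tumor than in marrow, and VISTA and CD39 transcripts were lower. Higher calls were made for 5 of 10 members, against 41.4% of all genes, with folds of 9.29 for Tigit (log2 3.21, SE 0.34, adjusted p = 3.5e-07), 6.28 for Ctla4 (log2 2.65), 5.02 for Pdcd1 (log2 2.33), 3.40 for Cd274 (log2 1.77) and 2.87 for Havcr2 (log2 1.52). Lower calls were made for 2 of 10, against 40.6% of all genes: Vsir (log2 fold change −3.47, SE 0.12, adjusted p = 8.02e-13) and Entpd1 (−1.21, adjusted p = 4.14e-08). Each of these 7 calls held under all 22 alternatives. Pdcd1, Ctla4 and Tigit were under the count filter in marrow alone, with 50, 42 and 38 counts over the 6 marrow libraries. They were tested here because the filter ran over all 16 libraries, so their folds rest on few marrow counts. Passing the filter through tumor favoured a higher call for them, so the 5 of 10 is not a result about the members. Lag3 (−0.14, adjusted p = 0.656), Cd200 (0.18, adjusted p = 0.387) and Pdcd1lg2 (−0.81, adjusted p = 0.083) did not pass. Pdcd1lg2 passed without K74R marrow replicate 2 (−1.01, adjusted p = 0.0233) or without K74R tumor replicate 2 (−1.01, adjusted p = 0.0486). Cd200 had no single order, since tumor over marrow gave −0.49 among K74R libraries alone and was higher among WT libraries alone (0.84, adjusted p = 0.0111).

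Against MSC, 6 of 10 members were higher in tumor (37.8% of all genes were) and 3 of 10 lower (34.7% of all genes were). Pdcd1, Pdcd1lg2, Ctla4, Lag3 and Tigit were under the count filter in MSC alone, Lag3 with 18 counts and Tigit with 5. They were tested in the contrasts with MSC because the filter ran over all 16 libraries. They passed it through tumor and not through MSC, which favoured a call as higher in tumor. In MSC over marrow the same holds for Lag3 and Pdcd1lg2, which passed in marrow alone. The counts of members in these contrasts are therefore a description and not a result about the members. Pdcd1, Ctla4 and Pdcd1lg2 had 0 counts in MSC, so tumor was at least 59.8-fold, 64.2-fold and 9.65-fold higher, from the limit of 3 counts over the 4 MSC libraries. Tigit (log2 fold change 5.57), Lag3 (4.11) and Cd274 (2.46, SE 0.15, adjusted p = 1.21e-09) were higher as well. Cd200 (−2.30), Vsir (−2.39) and Entpd1 (−1.89) were lower in tumor than in MSC, and Havcr2 (0.03, adjusted p = 0.942) did not pass. Between MSC and marrow 3 of 10 were higher in MSC, against 36.7% of all genes: Cd200 (2.48), Havcr2 (1.50) and Entpd1 (0.68, adjusted p = 5.9e-05). Lower in MSC were 7 of 10, against 40.2% of all genes: Lag3 (−4.25), Tigit (−2.36), Vsir (−1.08) and Cd274 (−0.69, adjusted p = 0.000642), together with Pdcd1, Pdcd1lg2 and Ctla4, for which marrow was at least 12.1-fold, 17.2-fold and 10.2-fold higher. The Entpd1 order turned with genotype. In K74R alone MSC was below marrow (−0.57, adjusted p = 0.00727), and in WT alone it was above (1.94). Vsir in WT alone no longer passed (−0.28, adjusted p = 0.159). With library size alone as scaling, the median of all genes in the contrasts of tumor moved up by 0.15 (against marrow) and 0.22 (against MSC) on the log2 scale.

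Counts per kilobase of exon, scaled to the same sum in each library (TPM), allow levels of different genes to be set side by side. In tumor the medians over 6 libraries were 31.1 TPM for Cd274, 24.2 for Vsir, 19.5 for Havcr2, 19.2 for Entpd1, 17.2 for Tigit, 8.40 for Cd200, 4.86 for Pdcd1, 4.43 for Lag3, 4.32 for Ctla4 and 0.962 for Pdcd1lg2. Neighbours in this order from Cd274 to Tigit overlapped in their ranges over libraries, as did neighbours from Cd200 to Ctla4. Within every single tumor library, however, Cd274 was above Vsir, and Cd200 was above Pdcd1. In MSC, with medians over 4 libraries, Vsir (131.8 TPM), Entpd1 (81.6), Cd200 (34.5) and Havcr2 (19.2) led, and neighbours among them overlapped. Within every single MSC library Vsir was above Entpd1, and Cd200 was above Havcr2. Cd274 followed at 5.31, and Lag3 and Tigit were below 1 in their medians (0.267 and 0.251). In marrow Vsir (189.7 TPM) and Entpd1 (31.0) stood above all others, followed by Cd274 (7.0), Cd200 (5.86), Havcr2 (5.10) and Lag3 (4.22), where each overlapped its neighbour in the order. Within every single marrow library Havcr2 was above Lag3. The order of Cd200 and Cd274 turned with genotype. In K74R marrow Cd200, at 7.34, 9.87 and 10.1 TPM, was above Cd274, at 6.58, 5.42 and 6.42 TPM, in every library. In WT marrow Cd200, at 3.55, 4.37 and 3.53 TPM, was below Cd274, at 8.43, 9.16 and 7.42 TPM, in every library. Tigit (1.11), Pdcd1lg2 (1.01), Pdcd1 (0.861) and Ctla4 (0.602) formed the low end in marrow, where each overlapped its neighbour. In each of the 16 libraries the TPM of the ligand PD-L1 was above that of its receptor PD-1.

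**Figure D4:**
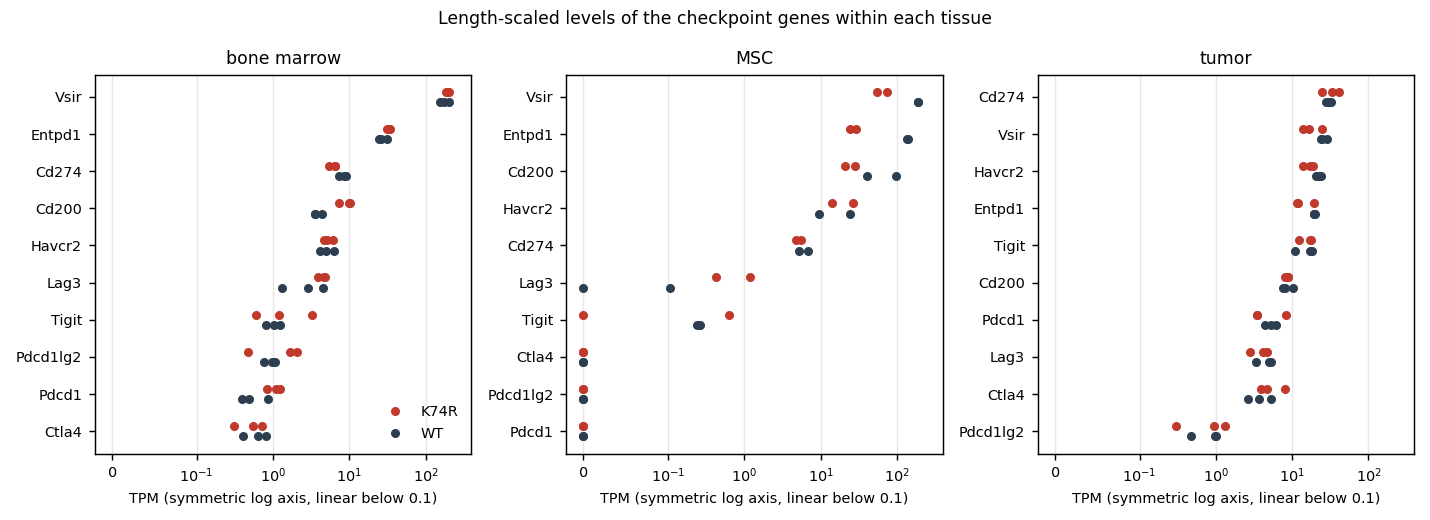
TPM of the checkpoint genes (horizontal axes, symmetric log scale that is linear below 0.1) in each library of bone marrow, MSC and tumor, with genes ordered by their median in that tissue and K74R drawn above WT. Vsir leads in marrow and MSC and Cd274 in tumor, and Pdcd1, Pdcd1lg2 and Ctla4 sit at 0 in MSC.

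Genes around the checkpoints were described from 6 lists chosen by role, of which 59 entries were tested in marrow, 47 in MSC and 64 in tumor. In marrow 0 passed with edgeR, limma-voom called 0, and 13 of 59 had an unadjusted p under 0.05, beside the 17.8% of all genes. DESeq2 called 3 higher (Sirpa, Cd40 and Ciita), where it called 4.15% of the 12851 genes to which it gave an adjusted p. Values in parentheses are log2 fold changes. Sirpa, the inhibitory receptor for CD47, had 317.5, 340.1 and 335.4 CPM in K74R marrow and 275.4, 271.0 and 246.3 CPM in WT marrow, without overlap (0.34, adjusted p = 0.0869). Cd40, a costimulatory receptor of B cells and myeloid cells, had 7.19, 11.6 and 10.9 CPM in K74R marrow and 5.34, 6.81 and 3.52 CPM in WT marrow (0.92, adjusted p = 0.144). Ciita, the coactivator of MHC class II genes, had 18.3, 15.9 and 15.7 CPM in K74R marrow and 11.1, 12.2 and 9.49 CPM in WT marrow (0.62, adjusted p = 0.0909). The other lists had their smallest p in Lgals3, a galectin (−0.32, adjusted p = 0.167), in Eomes, a T-box factor of cytotoxic lymphocytes (1.32, adjusted p = 0.101), and in Lck, the kinase next to the T cell receptor (0.46, adjusted p = 0.126).

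In MSC 2 of 47 entries fell with edgeR, beside the 1.29% of all genes, both from the 8 tested regulators of T cell exhaustion and effector function (median log2 fold change −1.09, against 0.001 for all genes). Irf4, a transcription factor of lymphocytes and macrophages, had 1.06 and 1.56 CPM in K74R MSC and 15.9 and 10.2 CPM in WT MSC (log2 fold change −3.32, SE 0.40, adjusted p = 0.0263). Nr4a1, an orphan nuclear receptor induced by many stimuli, had 4.35 and 5.32 CPM in K74R MSC and 23.6 and 15.9 CPM in WT MSC (−2.03, SE 0.30, adjusted p = 0.0361). Cd3d, Cd3e, Cd3g, Cd8a and Cd8b1 were at 0 in these libraries, while Cd4 was higher in K74R, as given above. The macrophage sums that stand beside Entpd1 stand beside Irf4 and Nr4a1 too. In the other 5 lists 0 passed with edgeR. The ligand CD86 of CTLA-4 and CD28 had 2.53 and 5.71 CPM in K74R MSC and 17.3 and 15.6 CPM in WT MSC (Cd86, −2.01, adjusted p = 0.06). Inpp5d, which encodes the phosphatase SHIP1 of blood cells, had 84.8 and 143.7 CPM in K74R MSC and 252.7 and 214.5 CPM in WT MSC (−1.04, adjusted p = 0.104). Icosl, the ligand of ICOS, gave −1.30 (adjusted p = 0.0734), Ciita gave −4.35 on few counts (adjusted p = 0.0606), and Cd244a, a SLAM-family receptor, gave 3.00 (adjusted p = 0.0561). An unadjusted p under 0.05 was reached by 20 of 47, beside the 26% of all genes. With DESeq2 3 entries were higher and 9 lower in K74R MSC, where it called 13.4% of 14194 genes in either direction.

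In tumor 0 entries passed with edgeR or limma-voom, and 9 of 64 had an unadjusted p under 0.05 with edgeR, beside the 11.2% of all genes. DESeq2 called 3 lower, all among the phosphatases and receptor-proximal signaling genes (Inpp5d, Ptpn6 and Lcp2), where it called 1.66% of 12197 genes in either direction. Of the 8 genes of that list, 8 had a negative log2 fold change (median −0.159, against 0.005 for all genes). Inpp5d had 29.2, 24.5 and 19.5 CPM in K74R tumors, all below the 37.4, 34.4 and 41.3 CPM of WT tumors (−0.62, adjusted p = 0.267). The interferon gamma list, which holds the pathway that induces PD-L1, had 10 of 12 negative values (median −0.198, against 0.005 for all genes). Of these 12 genes, 2 had an unadjusted p under 0.05 with edgeR. In MSC 8 of 9 tested genes of that list were negative too (median −0.205, against 0.001 for all genes). In tumor Sirpa (−0.50, adjusted p = 0.362), Prdm1, which encodes the repressor BLIMP-1 (−0.63, adjusted p = 0.37), Tnfrsf14, the partner HVEM of BTLA (−0.44, adjusted p = 0.468), and Tnfsf9, the ligand of 4-1BB (0.28, adjusted p = 0.445), had the smallest p of their lists. These tumor values stand beside the white cell sums given above, lower in 2 of the 3 K74R tumors than in every WT tumor, whose part was not tested.

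The genes whose profiles over the 16 libraries were most like those of 3 members were found by the root mean square difference of centred log2(CPM + 0.5) values. For Pdcd1 these were Tap1 (0.284), which transports peptides for MHC class I, the pseudogene Gm15433 (0.291) and Rasgef1c (0.302), against a median of 1.30 over 16665 genes. For Cd274 they were Sinhcaf (0.231), Ddn (0.249) and Gm29106 (0.253), against 1.22. For Cd200 they were Gm15222 (0.326), Tgfbr2 (0.364), a TGF-beta receptor, and Maneal (0.385), against 1.33. The 16 libraries come from only 3 tissues and share their depth scaling, so these distances are a description. The added 0.5 also shrinks differences at low levels, so a near profile does not mean equal folds between tissues. Tap1 had medians of 258.7 CPM in tumor, 33.9 in MSC and 83.9 in marrow, and Pdcd1 had 2.74, 0 and 0.605. In the same order Ddn had 2.86, 0.0308 and 0.327 CPM, and Cd274 had 31.1, 5.50 and 9.87. Gm15222 had 0, 1.95 and 0.0342 CPM, and Cd200 had 7.82, 32.2 and 7.02.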

How the data were processed

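RNA-seq libraries were prepared for 16 samples from TRIzol-extracted RNA with a KAPA mRNA kit, per the labels' protocols. The authors deposited raw counts per gene, as whole numbers for each sample. Trimmomatic 0.38, HISAT2 2.1.0, featureCounts 1.6.0, FastQC and MultiQC are named for build GRCm38, per the submitters' processing notes. The sources used here state neither the annotation, the strand setting nor the handling of reads with several matches. Column names of WT tumors carry a letter R, and those of WT MSC the letters KCF in place of KLF, with no meaning given.

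Groups follow the genotype and tissue labels. All 55536 identifiers matched GENCODE release M21, which gave coordinates and exon lengths. K74R was tested against WT in each tissue alone with R 4.3.3 and edgeR 4.0.16 (filterByExpr, trimmed mean of M-values, quasi-likelihood test, Benjamini-Hochberg adjustment over all genes tested, threshold 0.05). Fold changes carry a prior count of 0.125. Differences between tissues, and of the genotype effect between tissues, came from 1 model of 16 libraries in 6 groups. CPM values were scaled over all 16 libraries, so a ratio of CPM can differ slightly from a fitted fold change, and TPM was computed from counts and exon lengths. The fits were tested on simulated data with known changes.

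The 10 members and the gene lists (163 distinct genes, 163 matched) were chosen with earlier results of these data known. From each pathway list the text names the genes that passed, up to 4 a direction, or else the 1 with the smallest p. A gene that this rule took is not reported here. Genes called by DESeq2 and outside this rule were named after their values were seen. The nearest profiles were sought among genes with at least 1 CPM in at least 2 libraries. Alternatives were other scalings and filters, DESeq2 1.42.0, limma-voom (limma 3.58.1), 1 model for all tissues, a block for the replicate number, 1 genotype alone, and each library left out. Replicates all differed by more than sampling noise.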

Additional observations from a re-analysis of the deposited data

Results flagged for a closer look

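In 7 cases the genotype effect on a member (K74R over WT, log2) differed between tissues by an interaction test with edgeR over all 16 libraries. Between MSC and bone marrow the difference was −2.61 for Cd200, −1.59 for Vsir and −2.50 for Entpd1. In these 3 the effect was negative in MSC and positive in marrow. Between tumor and MSC it was 1.28 for Cd200, 0.89 for Vsir and 1.72 for Entpd1, whose effect was negative in both tissues and nearer 0 in tumor. For Lag3 it was −4.04, with 17 counts in K74R MSC and 1 in WT MSC, where it was under the count filter of that tissue alone.

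Of these, Entpd1 in the second contrast kept its call under 18 of 18 alternatives, all of which used 1 spread per gene for all tissues. Vsir was called there in 12 of 18, Lag3 in 10 and Cd200 in 9. Vsir was lost without K74R MSC 1, WT MSC 1 or 2, K74R tumor 1, or WT tumor 2 or 3 (0.65 to 0.90, adjusted p = 0.0565 to 0.156). Lag3 was lost without K74R MSC 1, WT MSC 1 or 2, K74R tumor 2 or 3, or WT tumor 1 or 3 (−6.46 to −3.07, adjusted p = 0.0527 to 0.27), and with the replicate block (−4.03, adjusted p = 0.0599). Cd200 was lost without K74R MSC 1, WT MSC 2 or any 1 of the 6 tumors (0.49 to 1.41, adjusted p = 0.0534 to 0.32), and with limma-voom (adjusted p = 0.15). Cd200 had a difference of 0.49 without WT MSC replicate 2 (adjusted p = 0.32), the library with the most endothelial marker RNA, whose part was not tested. Havcr2, not called there with all libraries, was called without WT MSC replicate 1 (−1.66, adjusted p = 0.0106).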

How the results depend on the processing

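Low counts left Pdcd1, Ctla4 and Tigit in marrow and 5 members in MSC under the filter of the tissue alone. Pdcd1lg2 was tested in marrow on 71 counts. The counts of calls over all genes moved with the filter, the tool, the model and single libraries. In marrow (115 genes) the count was 875 with no filter, 533 with DESeq2, 60 with the single model and 11 to 684 with 1 library left out. In MSC (484) it was 3063, 1909, 4430 and 0 to 581 under the same settings, and 1135 with the replicate block. In tumor (6) it was 810, 202, 0 and 0 to 124, and 13 with the block. For the genotype effect in tumor minus marrow (7) it was 603 with no filter, 181 with DESeq2, 11 with relative log expression scaling (18.2% of calls higher, against 28.6%) and 4 to 54 with 1 library left out. It was 1938 to 4416 for MSC minus marrow (3427) and 1110 to 3030 for tumor minus MSC (1929).

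With the single model 0 members passed in marrow, where 60 of 18191 genes did. In MSC 4 passed (Lag3 higher, and Cd200, Vsir and Entpd1 lower), where 4430 of 18191 genes did. With 1 library left out 0 to 1 members passed in marrow and 0 to 2 in tumor. With no filter 3 members passed in tumor (Havcr2, Vsir and Entpd1), where 810 of 29690 genes did, and 3 in tumor minus marrow, where 603 of 34254 genes did. In tumor minus marrow DESeq2 gave 2 and leaving out a library 0 to 2. In tumor minus MSC leaving out a library gave 1 to 4. Same-numbered libraries did not deviate together in every pair (correlations of 0.254, 0.112 and −0.090 in marrow, −0.179 in MSC, 0.026, −0.031 and 0.077 in tumor). These values cannot show whether the numbers mark pairs. In MSC the deviations from a mean of 2 libraries mirror each other, so both pairs there give the same value. Crossing the MSC numbers, an alternative chosen after seeing the data, gave 1943 calls. With the replicate block, Cd200 passed in MSC (−1.28, adjusted p = 0.0454).

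Directions turned for the following values. In tumor over marrow Lag3 was 0.0046 with library size alone, 0.31 in WT alone and −0.32 to 0.053 with 1 library left out, and Cd200 was −0.49 in K74R alone. In tumor over MSC Havcr2 was −0.020 with relative log expression scaling, −0.020 with DESeq2, −0.39 in K74R alone and −0.25 to 0.42 with 1 left out. In MSC over marrow Entpd1 was −0.57 in K74R alone. With 1 library left out, K74R over WT ranged from −0.045 to 0.14 for Havcr2 in marrow, −0.34 to 0.061 for Cd274 and −0.22 to 1.12 for Havcr2 in MSC, and in tumor from −0.68 to 0.056 for Pdcd1, −0.19 to 0.22 for Cd274, −0.45 to 0.36 for Pdcd1lg2, −0.25 to 0.12 for Tigit and −0.20 to 0.015 for Cd200. The genotype effect ranged from −0.23 to 1.09 for Havcr2 in MSC minus marrow and from −0.048 to 0.36 for Cd274 in tumor minus MSC. The cause was not tested. Of the 317 alternative values of the members' genotype differences, 285 kept direction and side of the threshold, as did 303 of 338 interaction values and 484 of 500 tissue values.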
